A study of Mus musculus with 15 samples.

Results

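The tri-snRNP and catalytic spliceosome proteins are 38 genes listed by name from the makeup of the splicing machinery, with earlier results of these data known. Each symbol matched 1 identifier of the GENCODE vM21 annotation. The set makes up 38 of 55536 annotated genes in the count table. All 38 were among the 24262 genes that passed the filter on low counts. OT-I CD8+ T cells, which carry a transgenic receptor for a peptide of ovalbumin and came from Rag-deficient donors, had been transferred into C57BL/6J recipients. The Ag group (n = 5) received the antigen peptide with control rat IgG, and the Ag+Costim group (n = 5) received the same peptide with agonist antibodies to OX40 (CD134) and 41BB (CD137). Donor CD8+ T cells were sorted from spleen and lymph nodes, on day 4 by the labels and somewhat earlier by the study's methods, and their poly(A) RNA was sequenced. All libraries shared the transgenic receptor, the transfer and the peptide. The study's methods give age ranges, in weeks or months, and both sexes for its mice as a whole and not by sample, and every cell carried the same receptor, which limits the groups as a model of a mixed CD8+ response. The comparison asked whether costimulation added to antigen changed the level or the isoforms of these genes.

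Introns are removed by the spliceosome, which is built anew on each intron. The U4/U6.U5 tri-snRNP brings the U4/U6 and U5 particles to the intron as 1 unit. The helicase SNRNP200 then unwinds U4 from U6, PRPF8 holds the catalytic RNA core, and the Prp19 complex joins as the active site forms. DEAH helicases drive the later steps, in which the exons are joined, the mRNA is released and the intron complex is taken apart.

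The genes whose group means differed most in ratio within the tri-snRNP and the Prp19 complex were Prpf19 and Prpf8, with Snrnp200 beside Prpf8 as its U5 partner, so the 250 bases before their RefSeq starts are shown (RefSeq, GRCm38.p6). They are at chr11:75486527-75486776 (Prpf8, plus strand), chr19:10894981-10895230 (Prpf19, plus strand) and chr2:127208136-127208385 (Snrnp200, plus strand). Capitals mark every match, on either strand, to 6 short motifs: the ETS core CCGGAAG, the CCAAT box CCAAT, the GC box GGGCGG, the CRE half-site TGACGT, the E-box CACGTG and the TATA box TATAAA.
Prpf8: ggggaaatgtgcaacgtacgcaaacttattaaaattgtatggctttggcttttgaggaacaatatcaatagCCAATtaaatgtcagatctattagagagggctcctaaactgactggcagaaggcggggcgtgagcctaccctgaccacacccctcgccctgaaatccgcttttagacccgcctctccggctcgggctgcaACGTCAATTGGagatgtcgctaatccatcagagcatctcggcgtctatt
Prpf19: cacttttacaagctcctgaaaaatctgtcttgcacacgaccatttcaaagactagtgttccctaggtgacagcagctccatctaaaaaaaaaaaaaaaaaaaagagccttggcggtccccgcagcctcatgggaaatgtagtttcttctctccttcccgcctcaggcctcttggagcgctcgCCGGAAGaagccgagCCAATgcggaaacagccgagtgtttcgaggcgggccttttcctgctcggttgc
Snrnp200: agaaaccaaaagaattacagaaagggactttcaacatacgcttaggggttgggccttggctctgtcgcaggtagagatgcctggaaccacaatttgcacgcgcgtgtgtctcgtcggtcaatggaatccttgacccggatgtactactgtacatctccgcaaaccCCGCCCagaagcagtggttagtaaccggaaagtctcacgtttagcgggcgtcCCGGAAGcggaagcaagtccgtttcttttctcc

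The window of Prpf8 held 2 CCAAT boxes, 179 and 43 bases before the start, and a CRE half-site 49 bases before it. The Prpf19 window held an ETS core at 68 bases and a CCAAT box at 53 bases before the start. Snrnp200 had an ETS core at 33 bases and a GC box at 85 bases. A window of 300 bases was given for 29 of the 38 genes, 1 window per gene. Both strands were searched. The ETS core was in 14 of the 29 windows (48.3%), against 10.998% of all 20595 windows and 23.5% of the 6608 windows of genes that averaged at least 10 CPM (counts scaled to a fixed library total). The CRE half-site was in 9 of 29 (31.0%), against 8.41% of all windows and 13.8% of the more highly expressed ones. The GC box was in 58.6% (42.7% of all, 67.2% of the more highly expressed), the CCAAT box in 48.3% (38.2% and 40.1%), the E-box in 6.90% (7.66% and 10.9%) and the TATA box in 3.45% (13.2% and 6.25%). Among the 8 windows of genes whose groups did not overlap (below), 4 held an ETS core. These are counts of letters, and binding was not measured.

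Library totals ran from 59.6 M to 449.4 M estimated counts in Ag and from 332.3 M to 639.1 M in Ag+Costim. Several Ag libraries stood apart. Ag replicate 3 was the shallowest and had the highest summed level of 6 erythroid markers (1103 CPM) and of 7 B cell markers (320.0 CPM), which were at 3.80 to 39.8 and 14.8 to 34.8 CPM in Ag+Costim. The B cell markers were also high in Ag replicates 1 and 4 (123.9 and 152.1 CPM) and not in Ag replicates 2 and 5 (19.0 and 20.8 CPM). As groups, the B cell, erythroid and NK cell markers all had log2 fold changes below 0, with medians of -2.62, -3.88 and -2.30. DESeq2 called 5 of 7, 5 of 6 and 2 of 3 of them lower in Ag+Costim, and edgeR called none after adjustment (4, 4 and 2 at an unadjusted p under 0.05). The 4 CD4 T cell markers were also below 0 (median -0.96), as were 6 of 8 CD8 T cell markers (median -0.13). Of the 9 myeloid markers, 6 were above 0 (median 0.11). The summed myeloid level was 55.5 to 154.7 CPM in Ag and 85.1 to 186.1 CPM in Ag+Costim. DESeq2 called no CD4 T cell, CD8 T cell or myeloid marker. Ag replicates 1, 3 and 4 had counts on 48058, 51778 and 40441 genes and Ag replicates 2 and 5 on 21779 and 20714, against 28727 to 30340 in Ag+Costim. Ag replicates 1 and 4 had the lowest summed level of 28 cell cycle genes (1967 and 2100 CPM, against 9280 to 16053 CPM in the other Ag libraries and 14774 to 18509 CPM in Ag+Costim). Cd8a was at 345.8 to 679.7 CPM and Cd4 at 0.0 to 5.1 CPM over the 10 libraries. Of the 8 CD8 T cell, 4 CD4 T cell, 7 B cell, 9 myeloid, 6 erythroid and 3 NK cell markers, none was at 0 in every library. The part of these features in the results below was not tested.

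With TMM scaling, all 38 genes had a higher mean level in Ag+Costim than in Ag, by ratios of 1.05 to 2.33 with a median of 1.34. None passed edgeR's quasi-likelihood test after Benjamini-Hochberg (BH) adjustment over all genes at 0.05, and neither did any other gene (0.0% of 24262 genes). The lowest BH-adjusted p among the 38 was 0.117, for Prpf8. At an unadjusted p under 0.05, 18 of the 38 were higher, against 20.2% of the 8626 genes averaging at least 10 CPM. DESeq2 called 8 of the 38 higher, against 9.84% of those genes it tested, and limma voom, with libraries weighted by quality, called 34 higher, against 57.6%. In that fit Ag replicates 2 and 5 had weights of 0.099 and 0.066, against 0.51 to 2.00 for the other Ag libraries and 1.70 to 3.35 for Ag+Costim, so these 2 libraries counted for little. The sign of the difference has to be read against a shift that depends on scaling. With TMM factors, 75.6% of genes at 10 CPM or more were higher in Ag+Costim and their median log2 fold change was 0.24. The median of the 38 genes was 0.42. With upper quartile scaling those medians were 0.02 and 0.21, and 33 of the 38 genes were above 0, with 5 below. The gap between the 2 medians was 0.18 with TMM and 0.14 to 0.29 in all the alternative fits.

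In 12 of the 38 genes, every Ag+Costim library was above every Ag library, against 11.3% of genes at 10 CPM or more, and no gene showed the opposite. The 12 were Prpf8, Snrnp200, Eftud2, Cd2bp2, Prpf4, Prpf19, Crnkl1, Cwc22, Dhx8, Dhx38, Slu7 and Prpf18. Their number rests on scaling. It was 6 with DESeq2's size factors (Prpf8, Prpf19, Cwc22, Prpf4, Cd2bp2 and Crnkl1), beside 631 of the 8626 genes. It was 8 with total counts, beside 628, and 2 with upper quartile scaling (Prpf8 and Prpf19), beside 322. The 8 included Cdc5l, Ctnnbl1 and Rbm22, which overlapped with TMM. Snrnp200, Dhx8, Dhx38, Slu7 and Prpf18 were without overlap only with TMM. Statements on the overlap of levels below are with TMM unless another scaling is named. Prpf8 and Prpf19 stood without overlap under all 4 scalings, and how many of the 8626 genes did so under all 4 was not counted. Without Ag replicate 5 the number was 17 with TMM, beside 1671 of the 8626 genes. In bulk samples, fewer cells of a type and less RNA per cell cannot be told apart.

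**Figure D1:**
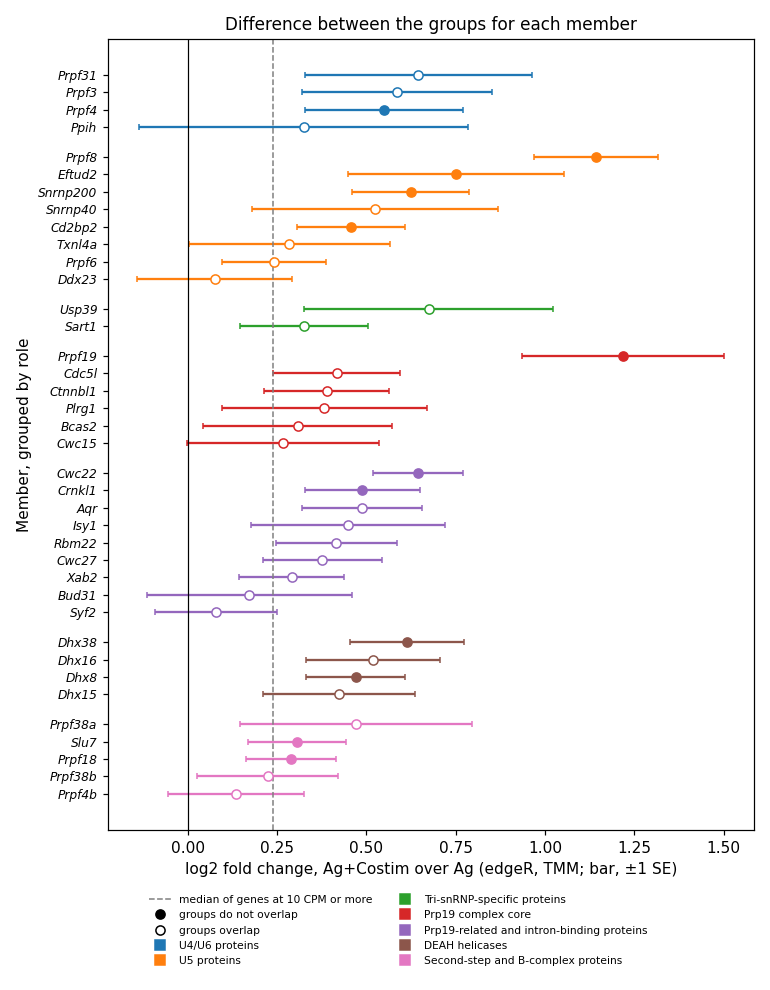
Log2 fold change of each of the 38 genes, Ag+Costim over Ag (x axis, edgeR with TMM, bars ±1 SE), grouped by role on the y axis; filled points are the 12 genes whose 2 groups of 5 libraries did not overlap. All points lie above 0 with TMM (5 lie below it with upper quartile scaling), Prpf19 (1.22) and Prpf8 (1.14) lie farthest, and the dashed line is the median of genes at 10 CPM or more (0.24).

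The U5 proteins were tested as 8 genes, with a median log2 fold change of 0.49. With TMM, 4 of them did not overlap between groups, against 11.3% of genes at 10 CPM or more. Among these, Prpf8 and Cd2bp2 stayed so with DESeq2's size factors, and Prpf8, Cd2bp2 and Eftud2 with total counts. With upper quartile scaling only Prpf8 did. Prpf8, a large and highly conserved protein (ENSMUSG00000020850.14, mm10 chr11:75486816-75509449, plus strand), was at 87.8, 123.7, 109.6, 95.7 and 92.6 CPM in Ag replicates 1 to 5. It was at 220.3, 230.6, 164.0, 291.4 and 218.2 CPM in Ag+Costim. The lowest Ag+Costim library, replicate 3, was above the highest Ag library, replicate 2. The group means were 101.9 ± 14.7 and 224.9 ± 45.3 CPM (SD, n = 5 each), a log2 fold change of 1.14 ± 0.17 (SE; edgeR BH-adjusted p = 0.117).

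Snrnp200 encodes the helicase that unwinds U4 from U6 (ENSMUSG00000003660.10, mm10 chr2:127208386-127240451, plus strand). Its levels were 107.6, 154.1, 154.6, 140.3 and 114.8 CPM in Ag and 170.2, 191.3, 195.3, 238.4 and 239.6 CPM in Ag+Costim. The groups did not overlap with TMM, and Ag replicates 2 and 3 lay closest to Ag+Costim replicate 1. The log2 fold change was 0.62 ± 0.16 (SE; edgeR BH-adjusted p = 0.184).

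Eftud2, the U5 GTPase that works with SNRNP200 and PRPF8 (ENSMUSG00000020929.14, mm10 chr11:102838473-102880985, minus strand), was at 112.8, 333.0, 259.3, 141.3 and 354.4 CPM in Ag. In Ag+Costim it was at 390.0, 361.6, 394.5, 417.4 and 456.9 CPM. Ag replicates 1 and 4 were far below the rest, and Ag replicate 5 came close to the lowest Ag+Costim library. The log2 fold change was 0.75 ± 0.30 (SE; edgeR BH-adjusted p = 0.260).

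Cd2bp2, a U5 protein that leaves before the tri-snRNP is complete, was at 67.7, 101.7, 77.0, 77.5 and 107.3 CPM in Ag. It was at 109.8, 116.8, 123.7, 119.7 and 121.9 CPM in Ag+Costim, again without overlap (log2 fold change 0.46 ± 0.15, SE; edgeR BH-adjusted p = 0.230). Of the other U5 genes, Snrnp40 (a WD-repeat protein) ran from 92.7 to 349.5 CPM in Ag and from 268.6 to 331.0 CPM in Ag+Costim. Txnl4a ran from 44.6 to 116.1 and from 77.3 to 114.2 CPM, and Prpf6, the scaffold that bridges U5 and U4/U6, from 92.6 to 144.7 and from 124.1 to 138.8 CPM. In these 3 genes the highest library of all 10 was Ag replicate 5.

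Ddx23, a helicase that helps exchange U1 for U6, was the least expressed of the 38. It was at 11.7, 7.0, 7.7, 9.8 and 5.7 CPM in Ag and at 8.2, 7.0, 8.2, 9.6 and 11.04 CPM in Ag+Costim. The groups overlapped over nearly their whole range, and the log2 fold change was 0.08 ± 0.22 (SE; edgeR BH-adjusted p = 0.835). Its sign was negative with 3 other scalings.

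Because PRPF8 and SNRNP200 sit in the same particle, the ratio of their CPM within a library was also taken, which needs no scaling between libraries. It was 0.816, 0.803, 0.709, 0.682 and 0.807 in Ag and 1.29, 1.21, 0.840, 1.22 and 0.911 in Ag+Costim, without overlap. Prpf8 to Eftud2 (0.261 to 0.778 against 0.416 to 0.698) and Snrnp200 to Eftud2 (0.324 to 0.993 against 0.436 to 0.571) overlapped. These pairs were chosen after the levels had been seen, and the ratios are given without a test.

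The Prp19 complex core, 6 genes with a median log2 fold change of 0.39, had 1 gene without overlap with TMM. This was Prpf19, a ubiquitin ligase that gives the complex its name (ENSMUSG00000024735.13, mm10 chr19:10895231-10909559, plus strand). Its levels were 44.8, 119.7, 93.6, 53.7 and 126.7 CPM in Ag and 179.4, 186.4, 226.4, 210.0 and 217.9 CPM in Ag+Costim. Even Ag replicates 2 and 5, the highest of their group, stayed well below the lowest Ag+Costim library. The means were 87.7 ± 37.3 and 204.0 ± 20.3 CPM (SD, n = 5 each), a log2 fold change of 1.22 ± 0.28 (SE; edgeR BH-adjusted p = 0.154).

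With TMM, the partners of Prpf19 in the core had smaller differences and overlapped. Cdc5l and Ctnnbl1 did not overlap with total counts. Cdc5l ran from 83.0 to 141.3 CPM in Ag and from 132.3 to 160.1 CPM in Ag+Costim, and Plrg1 from 55.1 to 165.4 and from 127.0 to 140.5 CPM. Bcas2 ran from 93.9 to 239.6 and from 179.9 to 210.3 CPM, Ctnnbl1 from 86.6 to 149.9 and from 137.5 to 152.7 CPM, and Cwc15 from 89.0 to 218.5 and from 163.5 to 179.8 CPM. Within each library, the ratio of Prpf19 to every one of these 5 partners was higher in all Ag+Costim libraries than in any Ag library. For Cdc5l, its direct scaffold partner, the ratio was 0.540 to 1.001 in Ag and 1.31 to 1.54 in Ag+Costim. Against Plrg1 it was 0.766 to 1.05 and 1.41 to 1.71. All 5 ratios share Prpf19, the highest of the 38 in log2 fold change, so they are not 5 separate observations. The pairs were chosen after the levels had been seen, and no test is given. Of the 38 genes taken relative to the median gene of the set in each library, Prpf19 alone did not overlap between groups, against 1.03% of the 8626 genes on that scale (log2 -0.66 to 0.11 in Ag and 0.50 to 0.76 in Ag+Costim).

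**Figure D2:**
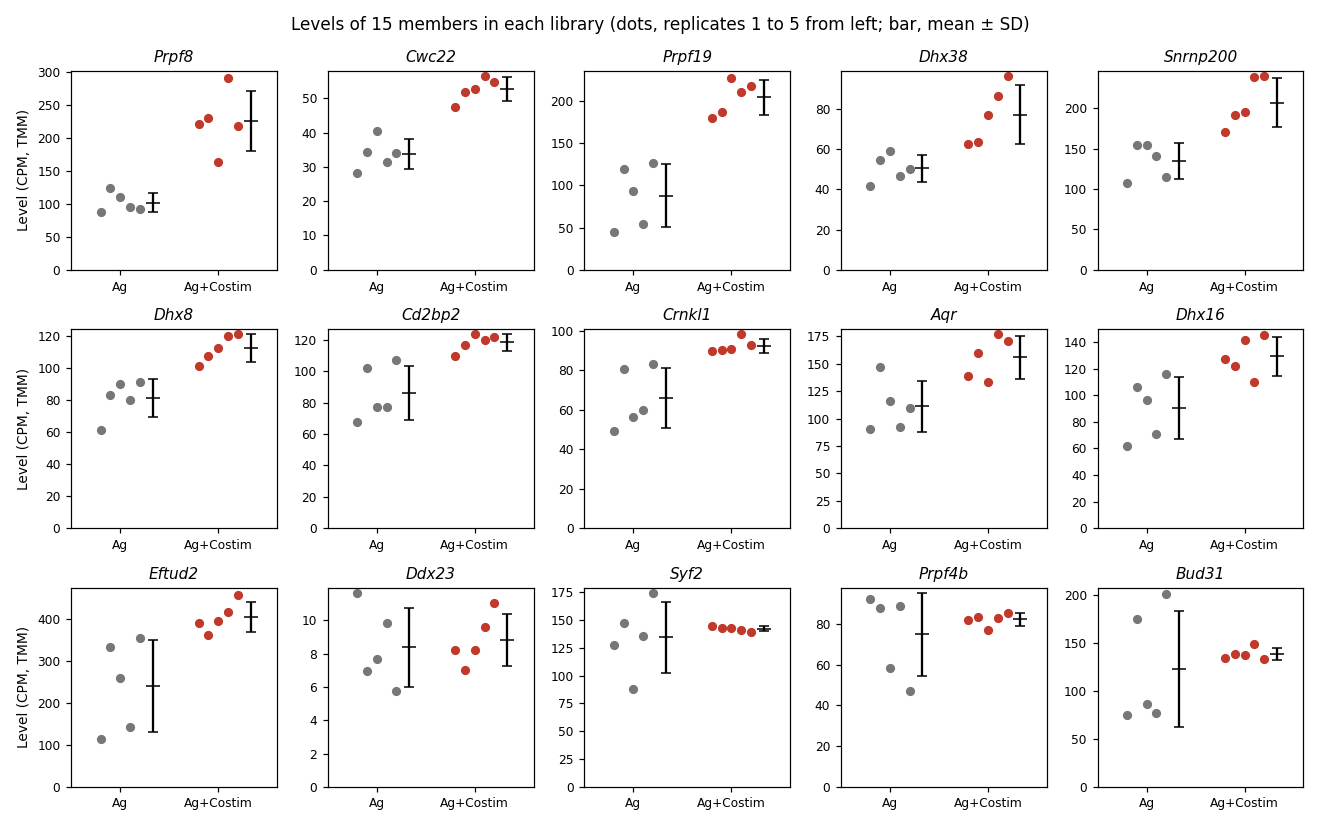
Level (CPM with TMM factors, y axis from 0) of 15 genes in each library (dots, replicates 1 to 5 from left to right) with the group mean and SD beside them; the x axis holds Ag (grey) and Ag+Costim (red). Prpf8 and Prpf19 show the widest separation, whereas in Bud31 the highest Ag library reached 200.4 CPM, above all Ag+Costim libraries.

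Among the 9 Prp19-related and intron-binding proteins, the median log2 fold change was 0.42, and Cwc22 and Crnkl1 did not overlap. Cwc22 places the core of the exon junction complex on spliced mRNA (ENSMUSG00000027014.14, mm10 chr2:77881159-77946375, minus strand). It was at 28.4, 34.3, 40.5, 31.5 and 33.9 CPM in Ag and at 47.4, 51.8, 52.7, 56.6 and 54.9 CPM in Ag+Costim. Its log2 fold change of 0.64 had the smallest SE of the 38 genes, 0.13 (edgeR BH-adjusted p = 0.134).

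Crnkl1, a helical-repeat scaffold, was at 49.1, 80.5, 56.2, 59.8 and 83.1 CPM in Ag and at 89.8, 90.4, 90.6, 98.2 and 92.5 CPM in Ag+Costim (log2 fold change 0.49 ± 0.16, SE; edgeR BH-adjusted p = 0.232). Aqr, an intron-binding helicase, was at 90.3, 147.0, 116.3, 92.3 and 110.1 CPM in Ag and at 138.7, 159.7, 133.0, 177.1 and 171.2 CPM in Ag+Costim. Ag replicate 2 lay inside the Ag+Costim range for Aqr, and the other 4 Ag libraries below it (log2 fold change 0.49 ± 0.17, SE; edgeR BH-adjusted p = 0.237).

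Syf2 and Bud31 were at the other end. Syf2 was at 127.1, 147.1, 87.7, 136.1 and 174.7 CPM in Ag and at 145.1, 142.7, 142.7, 141.1 and 139.0 CPM in Ag+Costim. The Ag+Costim libraries lay within the Ag range and had a coefficient of variation of 1.57%, the lowest of the 38 genes (log2 fold change 0.08 ± 0.17, SE; edgeR BH-adjusted p = 0.781). Bud31, which binds close to the catalytic core, was at 74.6, 174.7, 86.7, 77.1 and 200.4 CPM in Ag and at 134.5, 138.1, 137.0, 148.8 and 133.0 CPM in Ag+Costim. Ag replicates 2 and 5 were above and the other 3 below all Ag+Costim libraries (log2 fold change 0.17 ± 0.29, SE; edgeR BH-adjusted p = 0.711). Syf2, like Ddx23, was below 0 with the 3 other scalings, and Bud31 with upper quartile scaling. Isy1, Xab2, Rbm22 and Cwc27 had log2 fold changes of 0.29 to 0.45, and their groups overlapped with TMM. Rbm22 did not overlap with total counts.

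The 4 DEAH helicases had a narrow range of log2 fold changes, 0.42 to 0.61. Dhx38, which acts before the second step, was at 41.8, 54.5, 58.8, 46.8 and 50.1 CPM in Ag and at 62.6, 63.4, 77.1, 86.3 and 96.2 CPM in Ag+Costim (0.61 ± 0.16, SE; edgeR BH-adjusted p = 0.184). Dhx8, which releases the mRNA, was at 61.8, 83.4, 90.1, 80.2 and 91.7 CPM in Ag and at 101.4, 107.9, 112.8, 120.4 and 121.5 CPM in Ag+Costim (0.47 ± 0.14, SE; edgeR BH-adjusted p = 0.204). Both stood without overlap with TMM.
Dhx16, the helicase of the step that makes the spliceosome active, was at 62.0, 105.9, 96.5, 70.5 and 116.0 CPM in Ag and at 126.9, 121.7, 141.6, 110.2 and 145.3 CPM in Ag+Costim. Only Ag replicate 5 and Ag+Costim replicate 4 crossed (0.52 ± 0.19, SE; edgeR BH-adjusted p = 0.245). Dhx15, which takes apart the intron complex, ran from 112.1 to 232.4 CPM in Ag and from 217.6 to 261.1 CPM in Ag+Costim.

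The U4/U6 proteins and the tri-snRNP-specific proteins Usp39 and Sart1 overlapped in all but Prpf4. Prpf4, which pairs with PRPF3 on U4/U6, ran from 35.1 to 76.0 CPM in Ag and from 76.5 to 91.1 CPM in Ag+Costim, so the groups nearly touched. Prpf3 ran from 30.2 to 76.7 and from 67.3 to 89.0 CPM, and Prpf31, which clamps U4, from 50.7 to 162.6 and from 140.4 to 175.6 CPM. The ratio of Prpf3 to Prpf4 within a library was 0.701 to 1.01 in Ag and 0.785 to 0.977 in Ag+Costim. Ppih, the cyclophilin of this particle, had the widest Ag range relative to its mean of all 38 genes (25.8, 109.1, 68.0, 25.2 and 159.0 CPM, a coefficient of variation of 74.1%), against 89.4 to 111.3 CPM in Ag+Costim. Usp39 ran from 42.1 to 145.6 CPM in Ag and from 134.3 to 166.9 CPM in Ag+Costim, and Sart1 from 85.9 to 152.7 and from 114.0 to 161.9 CPM.

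Of the 5 second-step and B-complex proteins, Slu7 and Prpf18, which act together in the choice of the second splice site, did not overlap with TMM. Slu7 ran from 75.1 to 116.1 CPM in Ag and from 120.8 to 126.8 CPM in Ag+Costim, and Prpf18 from 95.05 to 132.7 and from 143.4 to 149.5 CPM. Prpf38a ran from 42.3 to 142.4 and from 113.1 to 126.0 CPM. Prpf38b and Prpf4b followed another order of libraries. Prpf38b was highest in Ag replicate 4 (108.5 CPM) and lowest in Ag replicate 3 (54.0 CPM), around an Ag+Costim range of 80.7 to 96.2 CPM. Prpf4b, a kinase of the spliceosome, was at 92.3, 87.8, 58.6, 88.7 and 47.3 CPM in Ag and at 82.3, 83.6, 77.3, 83.2 and 85.3 CPM in Ag+Costim. Ag replicates 1, 2 and 4 were above all Ag+Costim libraries for Prpf4b (log2 fold change 0.14 ± 0.19, SE; edgeR BH-adjusted p = 0.655), and the sign was negative with the 3 other scalings.

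**Figure D3:**
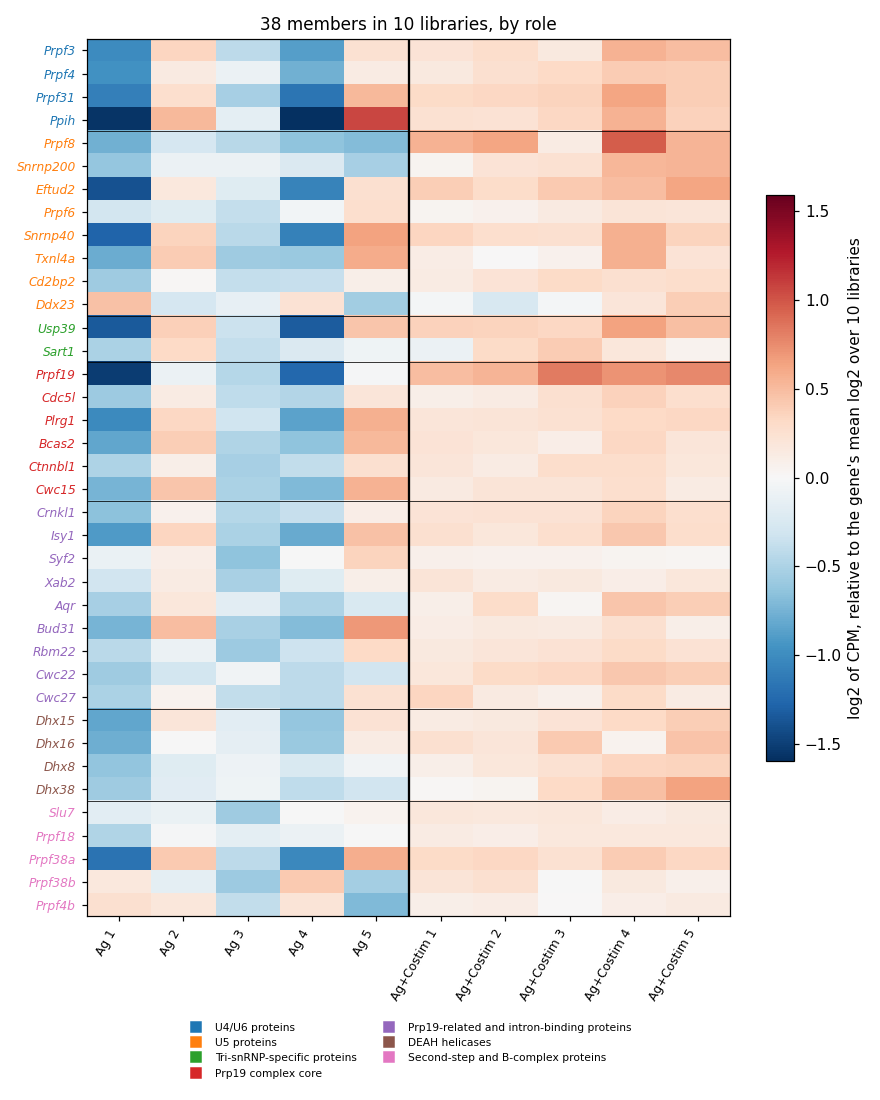
Each of the 38 genes (rows, grouped by role and coloured by it) in each of the 10 libraries (columns), as log2 CPM relative to the gene's mean over the libraries (colour scale). Ag replicates 1 and 4 are low in most rows, Ag replicates 2 and 5 are near or above the Ag+Costim libraries in many, and Ddx23, Prpf38b and Prpf4b are rows in which Ag replicates 1 and 4 are not low.

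Levels varied more among the Ag libraries than among the Ag+Costim libraries. The coefficient of variation was larger in Ag than in Ag+Costim in 36 of the 38, with medians of 26.7% and 7.30%. Over genes at 10 CPM or more the medians were 32.2% and 8.54%, and 96.3% of them varied more in Ag. In 27 of the 38 genes Ag replicates 2 and 5 were the 2 highest Ag libraries, in 23 Ag replicates 1 and 4 were the 2 lowest, and 19 genes had both. Ag replicate 1 was below every Ag+Costim library in 35 genes, replicate 3 in 37 and replicate 4 in 35, but replicate 2 in only 20 and replicate 5 in only 17. In 12 genes Ag replicate 5 was above every Ag+Costim library. These counts include the 12 genes without overlap, which by definition have all 5 Ag libraries below.

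Other measures of the libraries moved with this order. The summed level of the 38 genes was 2664, 4830, 3380, 3003 and 5078 CPM in Ag replicates 1 to 5 and 5006 to 5673 CPM in Ag+Costim. The summed level of the 28 cell cycle genes had the same order in Ag, with 1967, 14760, 9280 and 2100 CPM in replicates 1 to 4 and 16053 CPM in replicate 5. All 28 cell cycle genes had log2 fold changes above 0 under each scaling, with a median of 0.90 with TMM, and 8 of them did not overlap. With TMM, 75.6% of genes at 10 CPM or more were above 0 and 11.3% were higher without overlap. At an unadjusted edgeR p under 0.05, 2 of the 28 were higher, against 20.2% of those genes. Transcript length also moved with the libraries. Across the 38 genes, the deviation of a library's log2 level from the gene's mean, relative to the set's median, had a Spearman rho with mean transcript length of -0.42 in Ag replicate 2 and -0.66 in Ag replicate 5. It was 0.21 to 0.34 in the other 3 Ag libraries and -0.27 to 0.25 in Ag+Costim. Over the 8626 genes at 10 CPM or more, rho was -0.44 and -0.68 in Ag replicates 2 and 5. The points share their library, and no p is given. Short mRNAs such as Ppih (839 bases), Bud31 (901 bases) and Cwc15 (1025 bases) were highest of the Ag libraries in these 2. For the long Prpf8 (7439 bases) and Snrnp200 (6735 bases), Ag replicate 5 was above only Ag replicate 1 within its group. Between transcript length and the log2 fold change itself, rho was 0.28 over the 38 genes and 0.08 over the 8626. The part of proliferation in the differences between groups was not tested, nor was that of transcript length beyond these values.

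**Figure D4:**
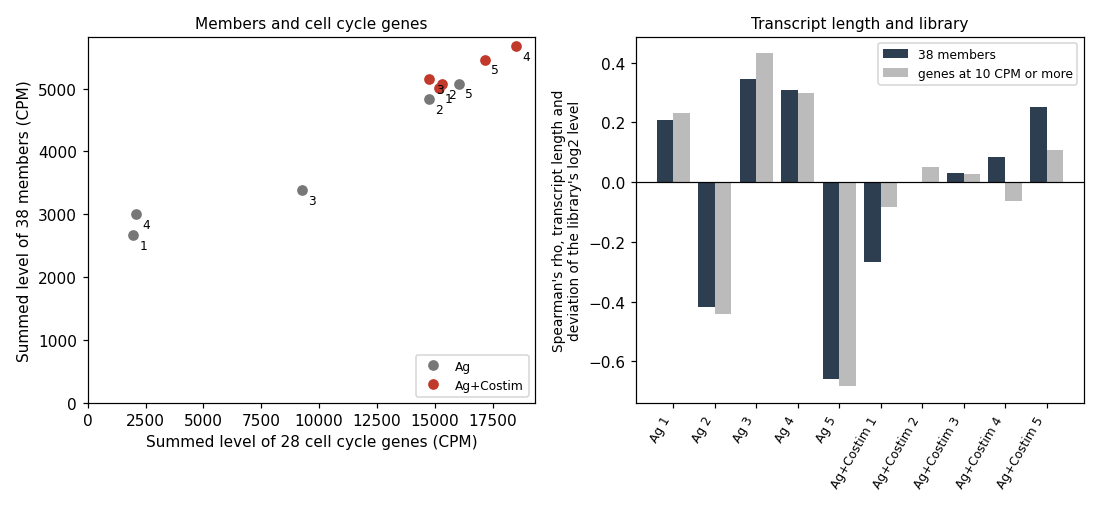
Left, summed level of the 38 genes (y axis, CPM) against that of 28 cell cycle genes (x axis, CPM) in each library, numbered by replicate; right, Spearman's rho between transcript length and the library's deviation, for the 38 genes and for genes at 10 CPM or more. Ag replicates 1, 4 and 3 lie at lower left, Ag replicates 2 and 5 lie beside the Ag+Costim libraries, and Ag replicates 2 and 5 have the most negative rho (-0.42 and -0.66).

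Per length, the 38 genes spanned a wide range. In Ag+Costim, CPM per kilobase of transcript was highest for Snrnp40 (182.6 ± 15.98, SD, n = 5), Cwc15 (169.1 ± 6.21) and Bud31 (154.7 ± 6.60) and lowest for Prpf4b (13.5 ± 0.49) and Ddx23 (4.41 ± 0.35). Eftud2 (122.2 ± 10.7) was well above its U5 partners Snrnp200 (30.9 ± 4.53) and Prpf8 (30.2 ± 6.09), which overlapped with each other. In Ag, Prpf8 was at 13.7 ± 1.97 and Snrnp200 at 20.2 ± 3.40 on the same scale. Prpf19 was at 94.1 ± 8.83 in Ag+Costim and 40.4 ± 17.1 in Ag.

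Other spliceosome genes were taken from lists of the same machinery. Of 73 listed genes outside the set, 70 had log2 fold changes above 0 with TMM (59 with upper quartile scaling), with a median of 0.37. None was called by edgeR, and 21 were higher at an unadjusted p under 0.05, against 20.2% of genes at 10 CPM or more. DESeq2 called 16 higher, against 9.84% of those genes it tested. With TMM, 15 did not overlap (20.5%), against 11.3% of genes at 10 CPM or more. The number was 11 with DESeq2's size factors, 11 with total counts and 5 with upper quartile scaling. Over the 8626 genes it was 631, 628 and 322. By part and with TMM, 6 of 15 U1 and U2 genes and none of 14 Sm and LSm genes did not overlap. Among other B, C and P complex genes it was 7 of 28. It was 2 of 8 genes of U5 and tri-snRNP assembly and none of 8 minor spliceosome genes. The median log2 fold change of the assembly genes was 0.52. Among them, Aar2, which holds PRPF8 during U5 assembly, was at 0.51 ± 0.17 (SE; edgeR BH-adjusted p = 0.236), and Znhit2 was at -0.01 ± 0.19 (SE; edgeR BH-adjusted p = 0.980).

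No change in isoforms was called either. Transcript usage was tested in all 38 genes with diffSpliceDGE, and none was called, against 0.286% of 9783 genes. At an unadjusted p under 0.05 there were 3, Isy1, Txnl4a and Xab2, with BH-adjusted p of 0.0747, 0.564 and 0.639. Their largest changes of a transcript's share were 1.35, 0.86 and 10.6 percentage points. For Isy1 and Txnl4a this was below the share change of 0.1 that a call also required. The share of the 9783 genes at an unadjusted p under 0.05 was not counted. With limma's diffSplice none was called and 6 were under 0.05. A single transcript held more than 50% of the counts in Ag+Costim in 37 of the 38 genes and more than 90% in 25, and the leading transcript was the same in both groups in 37.

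The event table held 619 splicing events of the 38 genes, with 1 percent-spliced-in (PSI) value per group and no replicates. None passed both of the study's thresholds (PSI difference above 0.05 with probability above 0.9), against 1.05% of all 138940 events. In genes at 10 CPM or more it was 0 of 604, against 0.598% of 98991 events. At any probability, 9 of the 619 events (1.45%) differed by more than 0.05, against 6.71% of events in genes at 10 CPM or more. Of the 541 core exon events, 538 had a PSI above 0.95 in both groups, so these exons were nearly always included. Of the 9 events, 7 were in Cwc22 and 2 were paired ends of Prpf18. For Cwc22 the end segment at chr2:77895768-77896578 (mm10, minus strand) went from 0.802 in Ag to 0.530 in Ag+Costim. The neighbouring segment at chr2:77895766-77895767 went from 0.198 to 0.470, and neither passed the probability threshold. A core exon of Cwc22 at chr2:77940302-77940362 was included at 0.368 in Ag against 0.302 in Ag+Costim.

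Transcripts that the annotation marks for nonsense-mediated decay (NMD) or for a retained intron held 8.87, 4.42, 6.07, 8.44 and 3.29% of the summed counts of the 38 genes in Ag replicates 1 to 5. They held 5.15, 4.86, 6.40, 4.23 and 2.79% in Ag+Costim. The groups overlapped (6.22 ± 2.44 and 4.69 ± 1.32%, SD, n = 5 each), and Ag replicates 1 and 4 were again apart. Over all protein-coding genes the shares were 6.89 ± 2.64 and 5.40 ± 0.29%. By gene, the share was lower in Ag+Costim in 24 and higher in 4 of the 38, against 58.9% and 12.3% of 8161 protein-coding genes at 10 CPM or more. In 1 gene, Cdc5l (0.32 to 0.57% in Ag and 0.082 to 0.27% in Ag+Costim), the groups did not overlap and Ag+Costim was lower, against 1.96% of those genes.

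The values per gene showed how far single libraries set them. Dhx16 had 2 main transcripts, the coding Dhx16-201 and the NMD transcript Dhx16-207. Dhx16-207 held 78.7, 0.0, 59.1, 73.2 and 64.3% of the counts in Ag and 66.8, 64.8, 61.8, 63.5 and 0.0% in Ag+Costim. In Ag replicate 2 and Ag+Costim replicate 5 the gene's counts were thus almost all on Dhx16-201, and in the other 8 libraries mostly on Dhx16-207. Inside the gene, these transcripts part at the start of exon 13 of 20, where Dhx16-207 lacks 25 coding bases (mm10 chr17:35887399-35887423, plus strand). The bases are shown in capitals between 30 bases of the exons on each side, as spliced in Dhx16-201 (GENCODE vM21).
Dhx16-201: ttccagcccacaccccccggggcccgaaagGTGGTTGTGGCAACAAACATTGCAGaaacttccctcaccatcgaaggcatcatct

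The run lost in Dhx16-207 ends in AG, as the last bases of an intron do. The event table had 18 Dhx16 events, all core exons, and no alternative acceptor event. Exon 13 as a whole was included at 0.9991 in Ag and 0.9995 in Ag+Costim. The near-complete use of Dhx16-201 was seen in the transcript counts, in 1 library of each group.

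Plrg1-201, an NMD transcript, was likewise listed at 0.0% in 3 Ag and 2 Ag+Costim libraries and at 11.03 to 22.4% in the other 5. Bcas2-204, which retains an intron, was at 29.5% in Ag replicate 1 and 33.3% in Ag+Costim replicate 3, and at 4.5 to 16.2% in the other 8. Xab2-205, also with a retained intron, was at 8.9, 26.4, 7.7, 21.3 and 6.9% in Ag and at 6.0, 4.1, 2.9, 2.4 and 5.1% in Ag+Costim, without overlap. Slu7-205, a coding transcript, was at 8.7 to 18.5% in Ag and 6.7 to 7.9% in Ag+Costim, also without overlap. Both were picked out of the 224 annotated transcripts of the set after their values had been seen. Other transcripts of the set, such as Cwc15-201, also did not overlap between groups. Neither their number nor the share over the transcripts of all genes is given. The separation of Xab2-205 and Slu7-205 can therefore not be read by itself as a change in isoforms. Prpf38b had large NMD shares in both groups. Its transcript Prpf38b-208 was at 14.1 to 28.9% in Ag and 11.7 to 26.2% in Ag+Costim. None of these genes was called for transcript usage.

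**Figure D5:**
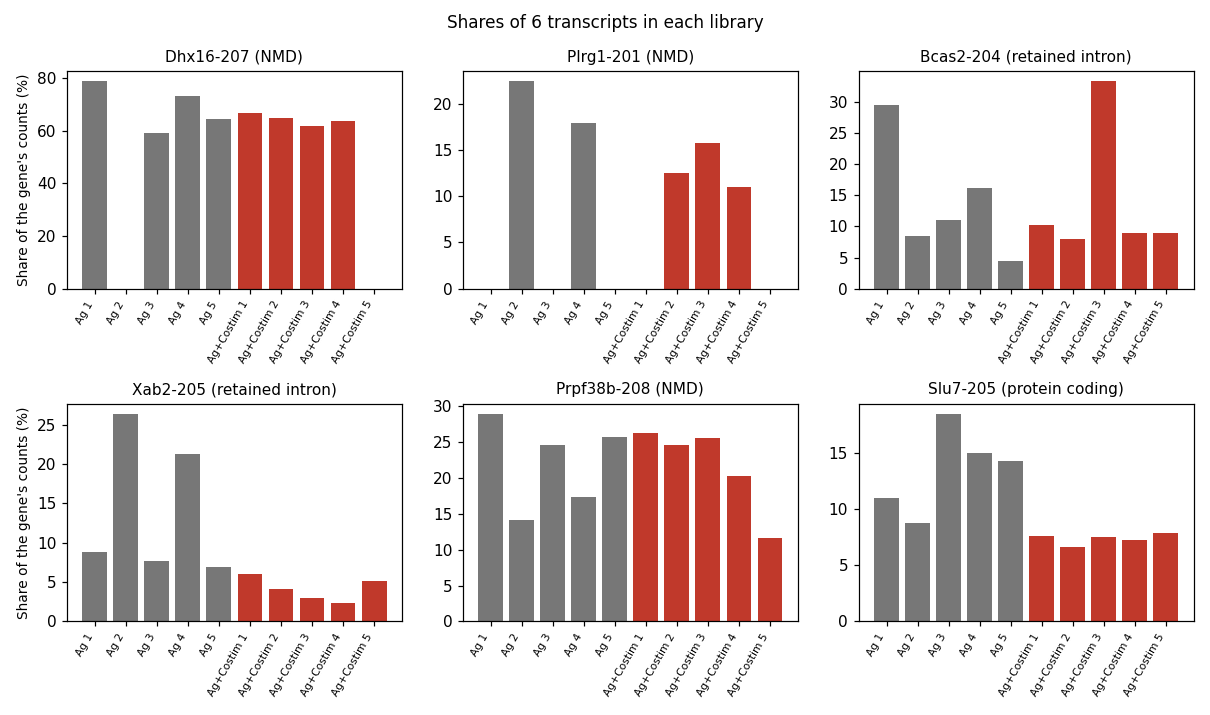
Share of the gene's counts (y axis, percent, from 0) on 6 transcripts in each of the 5 Ag (grey) and 5 Ag+Costim (red) libraries (x axis). Dhx16-207 is at 0.0% in Ag replicate 2 and Ag+Costim replicate 5 and at 59.1% or more elsewhere. Xab2-205 and Slu7-205 are higher in every Ag library than in any Ag+Costim library. The 6 transcripts were picked after their values had been seen.

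Of the 38 genes, 15 lie over other annotated genes, Eftud2 (Gm26668) and Cwc22 (Gm13727) among them, and the library kit does not mark strand, so reads from either strand could not be told apart. Prpf6 overlaps Zfp512b and Samd10 on the other strand, Crnkl1 overlaps Cfap61, Xab2 overlaps Camsap3, Bud31 overlaps Ptcd1 and Cwc27 overlaps Srek1ip1. Isy1 (Gm45140), Txnl4a (Gm16286), Cwc22 (Gm13727), Dhx15 (Gm43178) and Aqr (Mir7002) overlap annotated genes on their own strand, between which counts could have been split. Of the genes described most fully here, Prpf8, Prpf19 and Snrnp200 overlap no other annotated gene.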

How the data were processed

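Poly(A) RNA libraries of sorted OT-I CD8+ T cells (5 Ag, 5 Ag+Costim) were made with SMART-Seq v4 and Nextera XT, an unstranded kit. Naive counts were not analysed here. Per the submitters' processing notes, the authors used HISAT2 2.1.0, SAMtools 1.9 and StringTie 2.1.0 on mm10. The deposited gene and transcript tables hold estimated counts (expected counts) from StringTie coverage, rounded to whole numbers and not normalized, so that totals are not numbers of reads. The authors' deposited event table from Whippet holds 1 PSI fraction per group. The deposited probability column is a score that the authors obtained from Whippet for a PSI difference, and it served here only as a filter. Its column of the authors' PSI differences was not used.

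Identifiers were those of GENCODE vM21. Entries without a gene identifier (26345) held at most 0.308% of a library's counts and were left out. Gene counts were tested with edgeR 4.0.16 in R 4.3.3 (quasi-likelihood test, filterByExpr, TMM factors, robust dispersions), with BH adjustment over all genes and a threshold of 0.05. Each SE of an edgeR log2 fold change was its absolute value divided by the square root of the quasi-likelihood F statistic. DESeq2 1.42.0 and limma 3.58.1 (voom with quality weights) were run as alternatives, with other scalings, no filter, a replicate block and each library left out. Transcript usage was tested with edgeR's diffSpliceDGE in protein-coding genes, on transcripts with at least 10 counts in 5 libraries, and called at BH under 0.05 with a share change over 0.1. Both fits were tested on simulated data. Counts per kilobase were transcript counts over transcript length, summed per gene. Levels relative to the median gene were taken on log2 of CPM with 0.5 added.

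Values in every library were given for the 10 genes with the lowest unadjusted edgeR p, for Prpf8, Snrnp200, Eftud2 and Prpf19, and for the 4 with the lowest log2 fold change; members with a called event or usage change would have joined them, and there were none. Transcripts shown by library and the ratios between partners were chosen after their values were seen. The 38 genes and all lists were chosen with earlier results of these data known. The study describes the replicates as separate mice, and p-values measure the spread between them. Counting error cannot be read from the totals, which are not numbers of reads, and the depth behind PSI values is unknown.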

Additional observations from a re-analysis of the deposited data

Results flagged for a closer look

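Among 78 groups of 5 libraries examined (38 genes and the share of NMD and retained-intron counts, in both groups), 1 held a library whose gap to its nearest neighbour was more than 0.71 of the group's range. Prpf31 was at 175.6 CPM in Ag+Costim replicate 4, with a gap of 0.727 of the range, against 140.4 to 150.1 CPM in the other 4. Chance flags about 1 group in 20.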

How the results depend on the processing

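Of the 38 genes, edgeR called 0 under every scaling, without a filter and with each library left out (0 to 0), whereas DESeq2 called 8 and limma voom with quality weights 34 (over all genes 0, 8064 and 12632). The median log2 fold change was 0.42, with 0.74 by voom, 0.76 without a filter and 0.32 to 0.56 with a library left out. The genes without overlap numbered 12, with 6 by DESeq2's size factors, 2 by upper quartile scaling, 1 relative to the median gene of each library (chosen after seeing the data) and 10 to 17 with a library left out. Calls of transcript usage stayed at 0 of 38 in each alternative (0 to 0), against 28 genes in all by diffSpliceDGE, 143 by limma's diffSplice and 5 to 70 with a library left out. Events past the thresholds stayed at 0. The difference in the NMD and retained-intron share was -1.53 percentage points, -1.17 as a mean of the genes' own shares, -1.45 without Dhx16 (chosen after seeing the data) and -2.26 to -0.87 with a library left out.

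Signs turned for 4 of the 15 genes described by library. Ddx23 (0.08) was -0.075 by DESeq2, -0.24 by voom, -0.086 with DESeq2's size factors, -0.19 with upper quartile scaling, -0.28 with total counts and -0.013 (without Ag replicate 5) to 0.23 with a library left out. Syf2 (0.08) was -0.040, -0.047, -0.15 and -0.17 by DESeq2 and the same 3 scalings, and -0.039 (without Ag replicate 3) to 0.21 with a library left out. Prpf4b (0.14) was -0.0050 by DESeq2, -0.056 by voom and -0.015, -0.12 and -0.19 with the scalings. Bud31 (0.17) was -0.017 with upper quartile scaling. The cause was not tested beyond the scaling itself.

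With the replicate number as a block, edgeR called 0 of the 38 genes, 16 were under an unadjusted p of 0.05 (18 without it), the median log2 fold change was 0.48 and transcript usage was called in 0. Same-numbered libraries did not deviate together (correlations -0.10 to 0.11), and only Ag replicate 1 correlated best with its own number. The labels do not say whether the numbers pair the samples, and these few correlations cannot settle it. Depth was lowest in Ag replicate 3, without which 12 genes did not overlap.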
